A study of Mus musculus with 12 samples.

Results

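Chi3l3, Retnla, Retnlg, Mgl2, Folr2 and Cbr2 are mouse genes used as markers of alternative macrophage activation, among them a chitinase-like protein and a pair of resistin-like proteins. They were taken by symbol as 6 of the 23420 gene rows of the deposited count table, where Chi3l3 is the older symbol of Chil3. The libraries came from macrophages sorted out of bone marrow nucleated cells of 2 C57BL/6 mice, numbered 19 and 7, in a study of how mesenchymal stromal cells (MSCs) educate macrophages in leukaemic marrow. Tibia marrow that had received MSCs gave 6 libraries, 3 from each mouse, and untreated femur marrow of the same mice gave the other 6, again 3 from each mouse. Since MSCs went into tibias alone and all controls were femurs, the treatment and the bone cannot be told apart. The sources used here do not give the leukaemia model, the animals' age, the dose and timing of the MSCs or the sort markers. No label says whether the 3 libraries of a bone came from separate cell samples, so p-values measure the spread between libraries, which may be technical.

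Alternative activation is the state that macrophages enter under interleukin-4 and interleukin-13, which signal through Il4ra to the transcription factor Stat6. Chi3l3, also called Ym1, is a secreted chitinase-like lectin without chitinase activity, and Retnla, also called Fizz1 or RELM-alpha, is a secreted resistin-like protein; both are textbook products of this state in mice. Bone marrow is also known for strong Chi3l3 and Retnlg transcripts in neutrophils and their precursors, and Retnlg encodes RELM-gamma. Mgl2 encodes the galactose-type lectin CD301b of macrophages and dendritic cells, Folr2 the folate receptor beta of tissue-resident macrophages, and Cbr2 a carbonyl reductase that resident macrophages of several tissues also express.

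The resistin-like genes lie side by side on chromosome 16, and their upstream sequences are shown because they share a site of the Stat6 kind. In GENCODE M21 coordinates (mm10), Retnla is at chr16:48842551-48844461 and Retnlg at chr16:48872621-48874496, both on the plus strand and 28159 bases apart. Each line is taken from the 250 bases before the RefSeq start (GRCm38.p6), 5′ to 3′, with motif matches in capitals. The RefSeq start of Retnla lies 58 bases inside the GENCODE gene, so its line stops at the GENCODE start after 192 bases, and that of Retnlg lies 13 bases before the GENCODE start; sites are placed from both starts.
Retnla, chr16:48842359-48842550, plus strand: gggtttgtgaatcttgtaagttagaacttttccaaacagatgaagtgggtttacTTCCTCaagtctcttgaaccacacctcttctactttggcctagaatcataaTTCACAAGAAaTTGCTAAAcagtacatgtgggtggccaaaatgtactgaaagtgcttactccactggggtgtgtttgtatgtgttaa
Retnlg, chr16:48872358-48872607, plus strand: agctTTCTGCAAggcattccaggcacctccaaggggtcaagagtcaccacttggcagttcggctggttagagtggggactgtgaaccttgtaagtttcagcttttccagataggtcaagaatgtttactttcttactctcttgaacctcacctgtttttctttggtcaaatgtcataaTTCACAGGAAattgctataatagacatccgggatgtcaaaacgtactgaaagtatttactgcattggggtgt
Chi3l3, chr3:106167565-106167814, minus strand: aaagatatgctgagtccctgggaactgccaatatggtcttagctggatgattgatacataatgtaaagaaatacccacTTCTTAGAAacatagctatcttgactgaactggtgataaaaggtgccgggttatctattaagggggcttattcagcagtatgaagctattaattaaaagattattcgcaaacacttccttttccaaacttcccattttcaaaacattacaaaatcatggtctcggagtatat

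TTCNNNNGAA, the spacing that Stat6 is known to prefer, began 145 bases before the RefSeq start and 87 before the GENCODE start of Retnla, and 72 bases before the RefSeq start and 85 before the GENCODE start of Retnlg. Over 170 aligned bases the 2 windows were 79.4% identical, and the 2 sites lay opposite each other and differed only by A7G, counted from the first base of the match in Retnla. Chi3l3 held the shorter spacing TTCNNNGAA, bound by several STAT proteins, 172 bases before its start in both annotations. The C/EBP motif TTGCNNAA began 134 bases before the RefSeq start of Retnla, just downstream of the Stat6-type site, and on the minus strand 246 bases before that of Retnlg. The PU.1 motif GAGGAA began 196 bases before the RefSeq start of Retnla (minus strand), 225 before that of Mgl2 and 79 before that of Cbr2, the last inside the GENCODE gene, and neither of the 2 Folr2 windows held any of the 4 motifs. Both strands were searched and no matches overlapped. Of 32851 RefSeq windows of the same length, 5.85% held TTCNNNNGAA, 7.02% TTCNNNGAA, 9.56% TTGCNNAA and 23.3% GAGGAA, so a match is a description of the sequence only.

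Each library held between 9773455 and 14869150 counts, and 13524 to 13902 genes had a count. All 12 macrophage-defining genes, among them Csf1r, Cd68 and Lyz2, were detected, and so were all 13 neutrophil genes. The summed level of the neutrophil genes ran from 18046 to 32123 CPM per library, against 16085 to 19680 CPM for the macrophage-defining genes. Lyz2 alone gave 12489 to 15789 CPM of the macrophage-defining sum, so the 2 sums do not measure the shares of these cells. CPM is the count of a gene per 1000000 counts of the tested genes of its library, after scaling by the trimmed mean of M values (TMM). Low counts were mostly even numbers: 69.8% of counts from 1 to 10 were even, as if both ends of a read pair were counted, so a count of 0 allows up to 3 fragments, or 6 counts. That floor was 0.404 to 0.617 CPM, for counting error only. Femur library 1 of mouse 19 was the shallowest. In marrow sorted in bulk, fewer cells of a type and less RNA per cell cannot be told apart.

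Per kilobase of exon, which allows levels of different genes to be compared, the 6 genes differed widely (the plot of level per length). Chi3l3 stood highest, at 3124 to 4345 CPM per kilobase, and was between the third and the ninth most counted gene of every library, with 0.515% to 0.705% of all counts. Retnlg followed at 496 to 1094 CPM per kilobase. Mgl2 was far below them at 2.09 to 5.0 CPM per kilobase, a range that met neither neighbour's. Cbr2 covered 0.446 to 1.63, Retnla 0.122 to 0.919 and Folr2 0 to 0.333 CPM per kilobase, and the ranges of Cbr2 and Retnla overlapped, as did those of Retnla and Folr2. The highest Folr2 library was still below the lowest Cbr2 library. The chitinase-like and the gamma resistin-like gene were thus abundant in this sort, while Retnla, a classic interleukin-4 target, was at or near the floor.

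**Figure D1:**
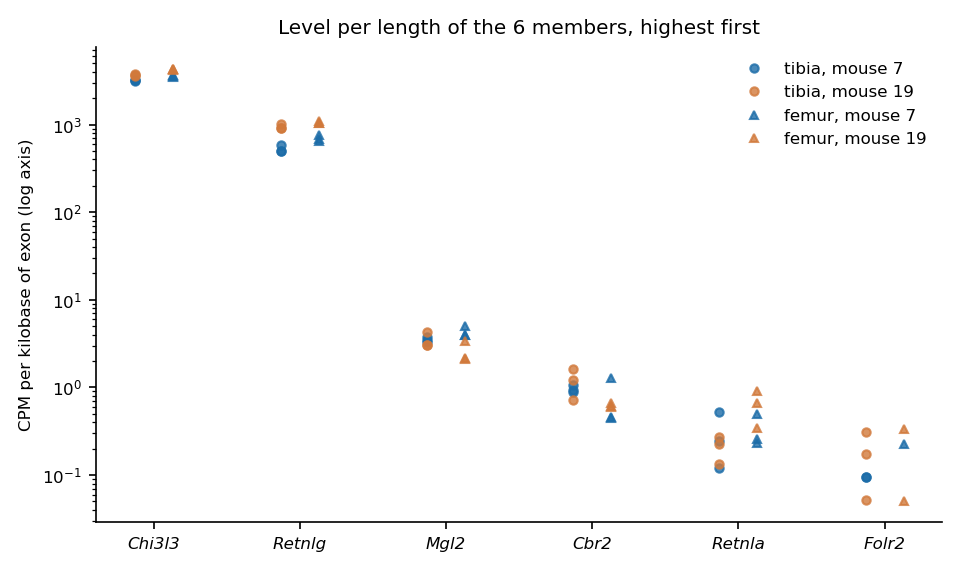
CPM per kilobase of exon (log axis) of the 6 genes, highest first, in the 6 tibia libraries (circles, left) and the 6 femur libraries (triangles, right) of mouse 7 (blue) and mouse 19 (orange); libraries at 0 are not drawn. Chi3l3 and Retnlg stand above 490 CPM per kilobase in all 12 libraries, and the other 4 genes stay at or below 5.0.

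Of the 4 members with enough counts to test, 2 were lower in MSC-treated tibias, Chi3l3 and Retnlg, and none was higher, by edgeR's quasi-likelihood test with the mouse as a term and Benjamini-Hochberg adjusted p under 0.05. Among all 11806 genes tested, 7.2% were called in that comparison, 3.69% lower and 3.51% higher. The median log2 fold change of the 4 was -0.07, and that of all genes -0.0021. Retnla and Folr2 did not pass the filter on low counts. Mgl2 and Cbr2 passed it and were not called.

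Chi3l3 (mm10 chr3:106147554-106167564, minus strand) had 5326, 5099 and 5226 CPM in the tibia libraries of mouse 7, against 5710, 5854 and 6060 CPM in its femur libraries. Mouse 19 gave 6119, 6054 and 5840 CPM in tibia libraries, against 7091, 6922 and 6957 CPM in femur libraries. In each mouse every tibia library was below every femur library, although the tibias of mouse 19 lay in or just above the range of the femurs of mouse 7. Over both mice Chi3l3 averaged 5611 ± 447 CPM in tibias and 6432 ± 624 CPM in femurs (SD, n = 6 libraries each), a log2 fold change of -0.20 ± 0.02 (SE, adjusted p = 9.7e-06), or 0.873 times the femur level. The change was called in each animal, at -0.22 ± 0.03 in mouse 19 (adjusted p = 6.1e-06) and -0.17 ± 0.03 in mouse 7 (adjusted p = 2.5e-04). Among all genes, 2.21% were called lower within mouse 19 and 5.36% within mouse 7. The mouse 19 minus mouse 7 difference of these changes was -0.05, with a 95% interval from -0.13 to 0.03 (adjusted p = 0.664). With counts summed per animal, which leaves 2 tibia and 2 femur values, Chi3l3 had a log2 fold change of -0.19 ± 0.05 and was not called (adjusted p = 0.196).

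Retnlg had 296, 294 and 347 CPM in the tibia libraries of mouse 7, against 452, 383 and 401 CPM in its femur libraries. In mouse 19 it had 536, 596 and 544 CPM in tibia libraries, against 620, 649 and 622 CPM in femur libraries. Again no tibia library reached a femur library of its own mouse, while both bones of mouse 19 were above both bones of mouse 7. Retnlg averaged 436 ± 138 CPM in tibias and 521 ± 122 CPM in femurs (SD, n = 6 libraries each), most of that SD lying between the animals, and its log2 fold change was -0.29 ± 0.05 (SE, adjusted p = 5.4e-04). Within mouse 7 it was -0.40 ± 0.06 (adjusted p = 1.4e-05) and within mouse 19 -0.17 ± 0.05 (adjusted p = 0.0602). The mouse 19 minus mouse 7 difference was 0.23 ± 0.08 (adjusted p = 0.106), so the 2 animals were not shown to differ at that threshold. Between the mice edgeR called 0 of the 4 members and 4.74% of all genes for this difference. At an unadjusted p under 0.05 it gave 2 of the 4, and 1806 of all 11806 genes. On counts summed per animal the log2 fold change was -0.29 ± 0.06 (adjusted p = 0.0745).

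**Figure D2:**
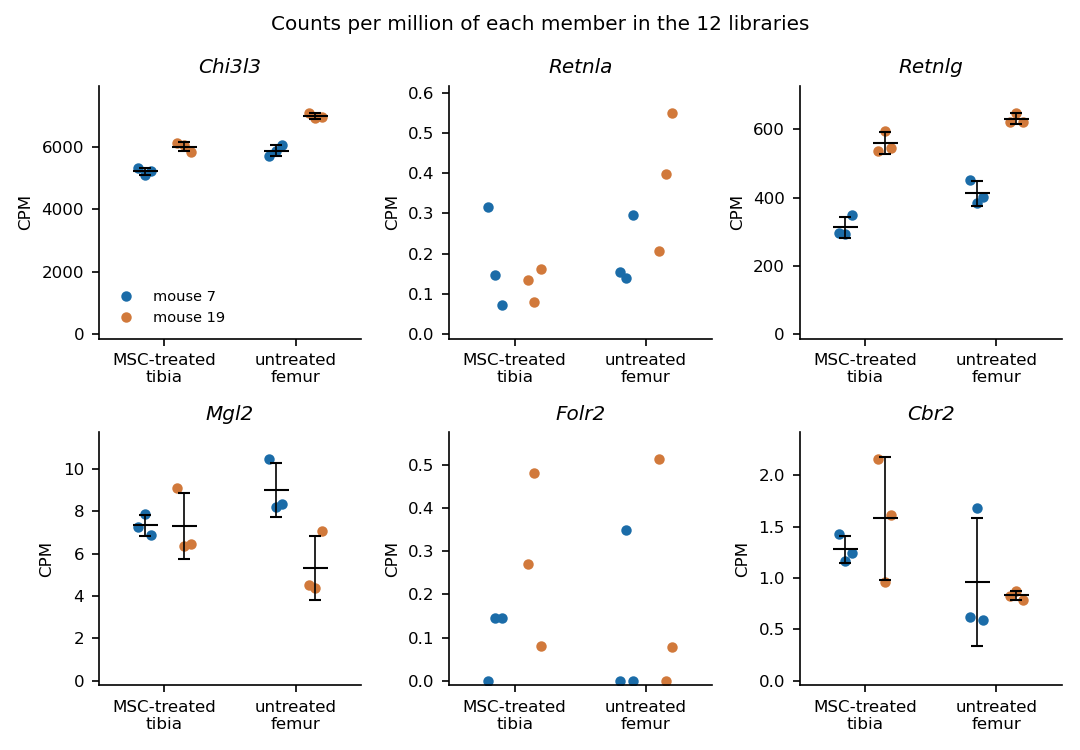
TMM-scaled CPM of each gene in the 12 libraries, MSC-treated tibia left and untreated femur right, with mouse 7 in blue and mouse 19 in orange; bars show the mean and SD of 3 libraries and are drawn for the 4 tested genes. For Chi3l3 and Retnlg each tibia cluster lies wholly below the femur cluster of the same mouse, and the vertical scale of each panel starts at or just under 0.

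The same order of bones in both animals, with no overlap in either, was seen for 2 of the 4 tested members. Of all tested genes, 2.76% had tibias below femurs in this way and 2.44% had tibias above. On counts summed per animal, edgeR called 0 of the 4 members and 0.551% of all genes. At an unadjusted p under 0.05 it gave 2 of the 4, and 1215 of all 11806 genes. Chi3l3 (adjusted p = 0.224) and Retnlg (adjusted p = 0.629) were also not called when the mouse was left out of the model, since the spread then holds the difference between the animals.

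Mgl2 (mm10 chr11:70130329-70137550, plus strand) had 7.28, 7.87 and 6.86 CPM in the tibia libraries of mouse 7, against 10.5, 8.21 and 8.36 CPM in its femur libraries. In mouse 19 it had 9.10, 6.35 and 6.46 CPM in tibia libraries, against 4.53, 4.38 and 7.08 CPM in femur libraries. Tibias were thus below femurs without overlap in mouse 7, as were 14.4% of all tested genes, and mostly above them, with overlap, in mouse 19. Over both mice the means were 7.32 CPM in tibias and 7.17 CPM in femurs, and the log2 fold change of 0.05 ± 0.15 had a 95% interval from -0.25 to 0.35 (adjusted p = 0.897). It was -0.29 ± 0.18 within mouse 7 (adjusted p = 0.359) and 0.45 ± 0.20 within mouse 19 (adjusted p = 0.225). The mouse 19 minus mouse 7 difference was 0.75 ± 0.27 (adjusted p = 0.131). It passed only without femur library 3 of mouse 19, where it was 1.02 (adjusted p = 0.0294).

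Cbr2 (mm10 chr11:120729489-120732114, minus strand) had 1.42, 1.17 and 1.24 CPM in the tibia libraries of mouse 7, against 0.616, 1.68 and 0.592 CPM in its femur libraries. Mouse 19 gave 2.16, 0.964 and 1.62 CPM in tibia libraries, against 0.823, 0.877 and 0.786 CPM in femur libraries. All 6 tibia libraries exceeded the mean of their own femur, and in mouse 19 the bones did not overlap, as was so, in that direction, for 10.8% of all tested genes in that mouse. The counts were few, 115 over the tibias and 69 over the femurs, a depth-scaled ratio of 1.62 (95% interval 1.04 to 2.55, counting error only). The log2 fold change of 0.65 ± 0.31 was not called (adjusted p = 0.228), and femur library 2 of mouse 7, the one high femur value, moved it most, to 0.99 when left out. Cbr2 passed the filter with all 6 tibia and 4 femur libraries over its minimum of 0.777 CPM.

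**Figure D3:**
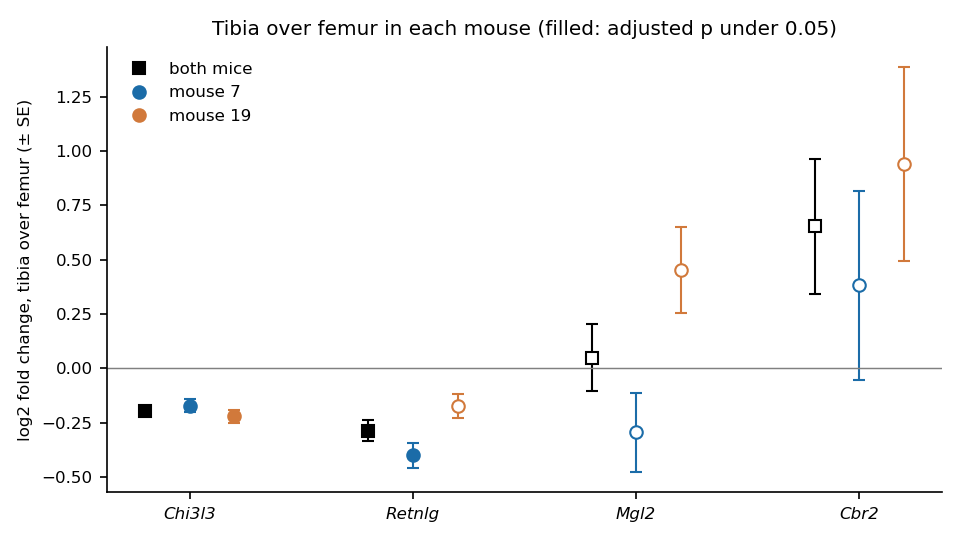
Log2 fold change, tibia over femur, with its SE for the 4 tested genes, over both mice (black squares), in mouse 7 (blue) and in mouse 19 (orange); filled symbols have an adjusted p under 0.05. Chi3l3 is below 0 and filled in all 3 fits, Retnlg is filled over both mice and in mouse 7, and Mgl2 lies on opposite sides of 0 in the 2 mice without being called in either.

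Retnla had 4, 2 and 1 counts in the tibia libraries of mouse 7 and 2, 1 and 2 in those of mouse 19, against 2, 2 and 4 counts in the femurs of mouse 7 and 2, 5 and 7 in those of mouse 19. Only femur library 3 of mouse 19, at 0.550 CPM, exceeded the floor of 6 counts. The sums were 12 counts in tibias and 22 in femurs, a ratio of 0.518 in fragments whose 95% interval of 0.157 to 1.53 covers counting error only, so no difference was detectable at this depth. Folr2 (mm10 chr7:101839988-101857194, minus strand) had 0, 2 and 2 counts in the tibias of mouse 7 and 4, 6 and 1 in those of mouse 19, against 0, 5 and 0 in the femurs of mouse 7 and 5, 0 and 1 in those of mouse 19. No Folr2 library exceeded the floor, the sums were 15 counts in tibias and 11 in femurs, and the ratio of 1.27 had an interval of 0.385 to 4.43. Exons of Folr2 overlap those of Gm10602 on the other strand, and the counting was not stated to use strand. In a fit without a filter both stayed uncalled, with adjusted p of 0.637 for Retnla and 0.936 for Folr2.

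The 2 animals also differed. In untreated femurs Retnlg was higher in mouse 19 than in mouse 7 by a log2 fold change of 0.61 ± 0.06 (adjusted p = 5.0e-10) and Chi3l3 by 0.25 ± 0.03 (adjusted p = 1.0e-07). Mgl2 was lower in mouse 19 than in mouse 7, at -0.74 ± 0.19 (adjusted p = 0.0042), and Cbr2 was not called, at -0.23 ± 0.48 (adjusted p = 0.769). That made 3 of 4 members called between the mice, where 28.4% of all genes were. The 2 members with the largest counts had higher values in mouse 19 and the lectin had a lower one.

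Across the 12 libraries, which are 4 clusters of 3 that share mouse and bone, log2 CPM of Chi3l3 and Retnlg had a Pearson correlation of 0.88. Mgl2 ran the other way, at -0.56 with Chi3l3 and -0.49 with Retnlg, and Cbr2 was within -0.35 to 0.12 of all 3. Among 8506 genes with a mean of at least 10 CPM, the 3 most like Chi3l3 were St3gal2 (r = 0.96, n = 12), Cd180 (0.96) and Nrp1 (0.96). The 3 most like Retnlg were Mmp9 (r = 0.98, n = 12), Wfdc17 (0.97) and Tesk2 (0.97). For Mgl2 they were Ets2 (r = 0.90, n = 12), Josd2 (0.89) and Nfkb2 (0.89), and for Cbr2 Nus1 (r = 0.85, n = 12), Rragc (0.82) and Plxna1 (0.82).

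Mmp9, the gelatinase of neutrophil granules, had 237 CPM in tibias and 333 CPM in femurs of mouse 7, and 437 CPM in tibias and 511 CPM in femurs of mouse 19 (means of 3 libraries). Its log2 fold change of -0.36 ± 0.04 (adjusted p = 1.8e-05) stood beside the -0.29 of Retnlg. Mmp9 was picked as most correlated with Retnlg over these same libraries, so a similar change largely follows from the choice. Of the 13 neutrophil genes, all tested, 3 were higher in tibias (Camp 0.23, S100a8 0.19 and Lcn2 0.14 in log2 fold change) and 3 lower (Mmp9, Csf3r -0.13 and Mmp8 -0.11), beside 3.51% and 3.69% of all genes, with a median of 0.08. The number called lower was 1 when any single library of mouse 7, tibia or femur, was left out. Within mouse 7, 1 of the 13 was called higher and 3 lower, and within mouse 19, 5 higher and 1 lower. Of all genes, 5.36% and 2.21% were called lower in these fits. Their summed level was 18430 to 19888 CPM in tibias and 18046 to 19874 CPM in femurs of mouse 7, and 29767 to 32123 CPM in tibias and 26511 to 30273 CPM in femurs of mouse 19. Thus the neutrophil sum, like Retnlg and Chi3l3, was higher in mouse 19. The tibia and femur ranges of the sum overlapped in both mice. None of the 13 was at 0 in any of the 4 groups. The part of neutrophil transcripts in the members' differences between the animals and between the bones was not tested.

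**Figure D4:**
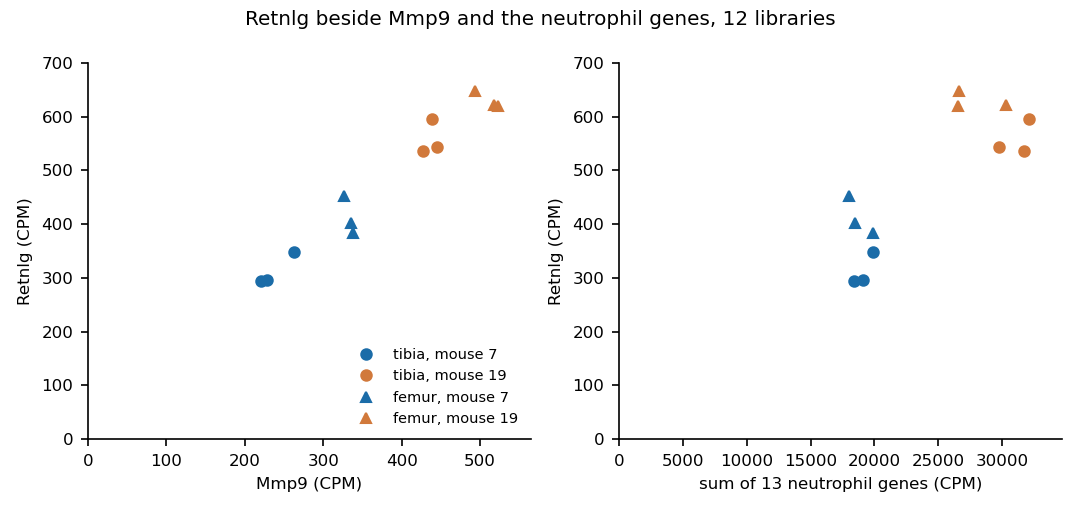
Retnlg CPM against Mmp9 CPM (left) and against the summed CPM of 13 neutrophil genes (right) in the 6 tibia libraries (circles) and 6 femur libraries (triangles) of mouse 7 (blue) and mouse 19 (orange). On the left, where Mmp9 was picked for its correlation with Retnlg in these libraries, the tibias lie below and left of the femurs of the same mouse. On the right the mice separate and the bones of mouse 7 share one range of neutrophil CPM, 18046 to 19888.

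Of the granulocyte precursor genes, among them the azurophil granule proteins Mpo, Elane and Ctsg, 6 of 8 were higher in tibias and none lower, with a median log2 fold change of 0.46. For this list and the next 2, the shares of all genes called over both mice were 3.51% higher and 3.69% lower. Within mouse 7, 6 of the 8 were called higher, and within mouse 19, 4. At an unadjusted p under 0.05 edgeR gave 6 within mouse 7 and 7 within mouse 19, all higher. Of all 11806 genes it gave 2688 and 2028 in either direction. For 3 of the 8 the mouse 19 minus mouse 7 difference was called below 0, beside 4.74% of all genes called in either direction. The sum of the 8 was 1178 to 1418 CPM in tibias and 831 to 888 CPM in femurs of mouse 7, and 1672 to 2060 CPM in tibias and 1357 to 1686 CPM in femurs of mouse 19. None of the 8 was at 0 in any of the 4 groups. Classical monocyte genes had 2 of 8 lower in tibias and none higher, among them F13a1 at -0.10. Dendritic cell genes, which matter for Mgl2 because these cells also express it, had 3 of 10 lower and none higher. Cd209a led them, at -0.77 ± 0.16 (adjusted p = 0.0033). It had 6.41 to 9.81 CPM in tibias and 15.5 to 19.9 CPM in femurs of mouse 7. In mouse 19 the bones overlapped, at 5.70 to 9.03 CPM in tibias and 7.57 to 11.1 CPM in femurs. The mouse 19 minus mouse 7 difference of Cd209a was called, at 0.88 (adjusted p = 0.042). The sum of the 10 was 105 to 111 CPM in tibias and 140 to 150 CPM in femurs of mouse 7. In mouse 19 that sum was 117 to 131 CPM in tibias and 136 to 145 CPM in femurs. The part of these cells in the members' values was not tested.

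The relatives by family gave no call between bones over both mice. In the chitinase family 0 of 5 tested genes were called by edgeR or by DESeq2, and Chia was at 0 in every library. By edgeR 1 of the 5 had an unadjusted p under 0.05, beside 2451 of all 11806 genes. Chi3l1, another chitinase-like lectin, had 84.3 CPM in tibias and 90.0 CPM in femurs (log2 fold change -0.10 ± 0.05, adjusted p = 0.28), and Chi3l4, the nearest relative of Chi3l3, 12.1 CPM in tibias and 12.9 CPM in femurs (-0.09 ± 0.10, adjusted p = 0.68). Chit1, an active chitinase, was low, at 3.14 CPM in tibias and 2.02 CPM in femurs, and was called higher in tibias within mouse 19 (1.19 ± 0.29, adjusted p = 0.012), with a called mouse 19 minus mouse 7 difference of 1.65 (adjusted p = 0.026). Chid1 and Ctbs, a chitinase-domain protein and a lysosomal chitobiase, had log2 fold changes of 0.09 and 0.18 and were not called.

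The transcripts of Chi3l3 and Chi3l4 are 94.7% identical over 1535 aligned bases, with identical stretches of up to 136 bases, and the genes lie 33925 bases apart. Those of Mgl2 and its neighbour Clec10a are 96.7% identical over 704 bases, with a stretch of 183, and those of Retnla and Retnlg 85.5% over 585 bases, with a stretch of 49. Reads from such stretches can be split between copies, given to the wrong copy or discarded, so levels of both genes of each pair carry that uncertainty. Among them is Chi3l4, at 12.1 CPM in tibias beside 5611 CPM of Chi3l3. Of the resistin family, Retnlb was at 0 in every library and Retn, resistin itself, was not tested, at 0.251 CPM in tibias and 0.191 CPM in femurs.

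Among the relatives of Mgl2, Folr2 and Cbr2, 0 of 5 tested genes were called over both mice by edgeR or by DESeq2. By edgeR 1 of the 5 had an unadjusted p under 0.05, beside 2451 of all 11806 genes. Without tibia library 1 of mouse 19, 1 was called lower. The one at an unadjusted p under 0.05 was Clec10a, the CD301a lectin, with 23.6 CPM in tibias and 27.0 CPM in femurs (-0.19 ± 0.07, adjusted p = 0.083), and it was called lower within mouse 7 (-0.32 ± 0.09, adjusted p = 0.016). The carbonyl reductases Cbr1, Cbr3 and Cbr4 had log2 fold changes of -0.24, 0.23 and 0.22 and the related Dcxr 0.04. Folr1, Folr4, Asgr1 and Asgr2 were not tested, and Asgr1 was at 0 in every library.

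Of 18 tested genes of interleukin-4 and interleukin-13 signalling, 1 was higher in tibias and 2 were lower over both mice (3.51% and 3.69% of all genes). Their median log2 fold change was -0.08. At an unadjusted p under 0.05 edgeR gave 11 of the 18, 2 higher and 9 lower, and 2451 of all 11806 genes. The number called lower was 1 when any femur library of mouse 7, its tibia libraries 1 or 3, or the first tibia library of mouse 19 was left out, and DESeq2 called 4. The number called higher was 2 without femur library 1 of mouse 19. Within mouse 7, 6 of the 18 were called lower and none higher, and within mouse 19, 1 lower and 3 higher. Of all genes, 5.36% were called lower within mouse 7 and 2.21% within mouse 19. At an unadjusted p under 0.05 edgeR gave 10 of the 18 within mouse 7 and 9 within mouse 19. Of all 11806 genes it gave 2688 and 2028. Il4ra, the receptor chain shared by both cytokines, had 219 CPM in tibias and 177 CPM in femurs (0.31 ± 0.06, adjusted p = 0.0011). The means were 220 and 152 CPM in mouse 19, but 217 and 202 CPM in mouse 7, where the libraries of the bones overlapped. The mouse 19 minus mouse 7 difference of Il4ra was called, at 0.43 (adjusted p = 1.3e-04). Pparg and Irf4, transcription factors that act with Stat6, were lower, at -0.39 ± 0.09 (adjusted p = 0.0098) and -0.32 ± 0.09 (adjusted p = 0.026). Stat6 itself had 373 CPM in tibias and 394 CPM in femurs (-0.08 ± 0.03, adjusted p = 0.097), Il4 was at 1.29 CPM in tibias and 2.05 CPM in femurs (-0.68 ± 0.28, adjusted p = 0.15), and Il13 was not tested. The other genes of the list, which include the kinases Jak1, Jak3 and Tyk2, the receptor chains Il13ra1 and Il2rg, Klf4, Cebpb, Irs2, Ppard, Ppargc1b, Kdm6b, Socs1 and Cish, were not called over both mice.

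Other alternative activation genes did not move as one group with Chi3l3 and Retnlg. Of 20 tested, 5 were higher in tibias and 4 lower (3.51% and 3.69% of all genes), with a median log2 fold change of -0.05. The number lower was 2 when tibia library 2 or 3 or any femur library of mouse 7 was left out. Arg1, which uses up arginine, had 34.1 CPM in tibias and 0.215 CPM in femurs, the femur value being under the floor (adjusted p = 7.8e-17). The scavenger receptor Stab1 (1.33 ± 0.12, adjusted p = 5.2e-08) and the transglutaminase Tgm2 (1.01 ± 0.15, adjusted p = 1.7e-04) were higher as well. The lipoxygenase Alox15, an interleukin-4 target, was lower, with 89.1 CPM in tibias and 126 CPM in femurs (-0.47 ± 0.05, adjusted p = 3.5e-06). The VEGF receptor gene Flt1 was called lower over both mice (-0.53 ± 0.15, adjusted p = 0.032), but was lower in mouse 7 only. It had 8.09 to 11.3 CPM in tibias and 17.2 to 20.3 CPM in femurs of mouse 7. In mouse 19 it had 5.46 to 6.67 CPM in tibias and 5.74 to 5.97 CPM in femurs. The mouse 19 minus mouse 7 difference of Flt1 was called, at 1.07 (adjusted p = 0.0022). Mrc1, the mannose receptor, had 17.3 CPM in tibias and 13.5 CPM in femurs and was not called (0.34 ± 0.11, adjusted p = 0.0605). Markers of one activation state thus held called positive, called negative and uncalled values in the same libraries.

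**Figure D5:**
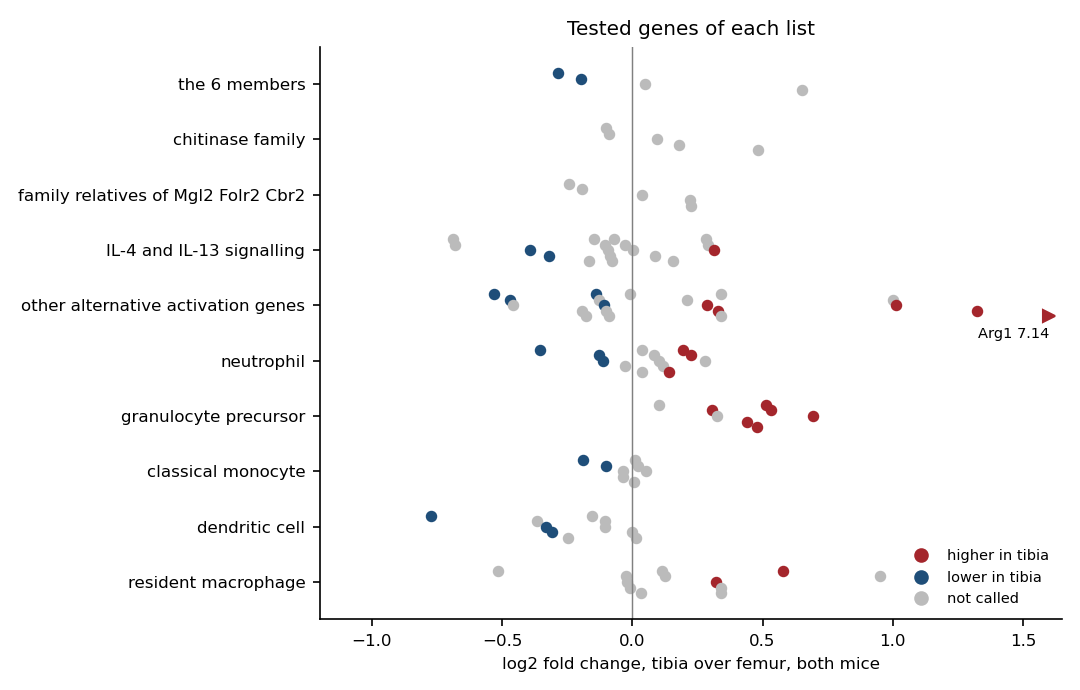
Log2 fold change, tibia over femur over both mice, of the tested genes of the 6 members, their relatives, interleukin signalling, other alternative activation genes and cell type lists; red points were called higher in tibias, blue points lower and grey points not called. Chi3l3 and Retnlg are the 2 blue points of the first line; Arg1 lies off the axis at 7.14, a fitted value that depends on the prior count because its femur level is under the floor.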

How the data were processed

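Macrophage RNA libraries were counted per gene by the authors, and the deposited values are raw counts with no normalization. Per the submitters' processing notes, mm10, bcl2fastq, HISAT2, Subread, featureCounts and DESeq2 were named. The sources used here do not give the annotation release or the strand setting. The table has 23420 gene rows, 27 of them turned into date names, which hold at most 0.194% of a library's counts and were kept. Tests used edgeR 4.0.16 in R 4.3.3 with TMM scaling, filterByExpr with a minimum count of 10 over the 4 groups (11806 genes kept), and Benjamini-Hochberg adjustment over all genes kept; an adjusted p under 0.05 was called. SEs are the log2 fold change divided by the root of the F value. DESeq2 1.42.0 was an alternative. Tests were tried on simulated data. Libraries of 1 bone differed by more than counting error, with chi-square values per gene of 1.37 to 3.13 on halved counts. Same-numbered libraries of the 2 bones correlated from -0.17 to 0.09 in their deviations, so the numbers were not used as pairs. Lists of 15 other gene groups were used, with 155 of 157 genes matched and Chi3l7 and Ly6g unmatched. The members and lists were chosen with earlier results of these data known. Genes named are the members, the 3 genes most correlated with each tested member, family relatives and interleukin genes whatever their values, and up to 4 called genes with the largest change per other list; Lyz2, Csf1r, Cd68, F13a1, Camp, S100a8, Lcn2, Csf3r, Mmp8, Alox15 and Mrc1, where outside this rule, were named as marker genes after their values were seen. Alternatives are given in the closing section; leaving out libraries before summing was added after seeing the data. Some genes of the lists are not reported here by name.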

Additional observations from a re-analysis of the deposited data

Results flagged for a closer look

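None of the 4 tested members had a called difference between the mice in the tibia over femur change. Of the 78 genes named by the rule 68 were tested, many of them named because they were called between bones. Of the 68, 16 had such a difference by edgeR's quasi-likelihood test, adjusted over 11806 genes. For 13 the change was higher in mouse 19 than in mouse 7, and for 3 it was lower. Of all 11806 genes, 4.74% were called for this difference, in either direction. The mouse 19 minus mouse 7 difference in log2 fold change was 1.65 for Chit1, a relative of Chi3l3, at low counts.

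Among interleukin-4 and interleukin-13 signalling genes the difference was 0.43 for Il4ra, 0.38 for Il13ra1, 0.34 for Il2rg and -0.45 for Klf4. Among other alternative activation genes it was 1.38 for Tgm2, 1.07 for Flt1 and 1.01 for Stab1. It was 0.26 for Mmp9, the gene most correlated with Retnlg, 0.35 for Nfkb2, one of the 3 most correlated with Mgl2, -0.61 for Mpo and -0.77 for Ctsg among granulocyte genes, 0.88 for the dendritic cell gene Cd209a, 0.80 for Maf and 0.45 for Hmox1 among resident macrophage genes, and 0.42 for the eosinophil gene Ccr3. Their causes were not tested.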

How the results depend on the processing

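Chi3l3 and Retnlg stayed lower in tibias over both mice under every alternative run, and stayed called under all but 2. On counts summed per animal the log2 fold change was -0.19 for Chi3l3 (adjusted p = 0.196) and -0.29 for Retnlg (adjusted p = 0.0745), with fewer values to test. With no mouse term it was -0.20 for Chi3l3 (adjusted p = 0.224) and -0.26 for Retnlg (adjusted p = 0.629). Leaving out 1 library at a time gave -0.21 to -0.18 for Chi3l3, -0.32 to -0.24 for Retnlg and 0.49 to 0.99 for Cbr2. Mgl2 ran from -0.076 to 0.15 and changed sign when tibia library 1 (-0.076), femur library 1 (-0.022) or femur library 2 (-0.046) of mouse 19 was left out; on sums it ran from -0.050 without that tibia library to 0.17, and was -0.013 without that femur library 2. The mouse difference of Cbr2 ran from -0.13, without femur library 2 of mouse 7, to 0.81. Retnlg within mouse 19 passed with no filter on low counts (adjusted p = 6.5e-04), with halved counts (0.0474) and when tibia library 3 (0.0289), femur library 1 (0.0421) or femur library 2 (0.0438) of mouse 7, or tibia library 2 of mouse 19 (0.0205), was dropped. Its mouse difference passed with no filter (0.0025), and, in mouse 7, when tibia library 3 (0.0105) or femur library 2 (0.0425) was dropped. On sums Retnlg passed without tibia library 2 of mouse 19 (0.0137). Genes called higher and lower numbered 414 and 436, but 48 and 17 on sums, 239 and 256 with the library number as a replicate block, 50 and 24 with no mouse term, and 284 to 498 and 279 to 490 when leaving out 1 library. The block ended no call of a member. Among fits without 1 library, the fewest lower genes were 279, with tibia library 3 of mouse 7 left out, and 283, with tibia library 2 of mouse 19 left out. With no mouse term edgeR called 0 neutrophil and 0 granulocyte precursor genes. Other scalings moved the median of all genes by less than 0.01. The causes of these changes were not tested. Depth limits Retnla and Folr2, which were at or near the floor.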

Other observations

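Macrophage-defining genes had 3 of 12 higher in tibias over both mice (among them Mertk 1.01 and C1qb 0.20 in log2 fold change) and 1 lower (Lyz2 -0.11). Among all genes 3.51% were called higher and 3.69% lower. Within mouse 7, 2 of the 12 were called higher and 3 lower, and within mouse 19, 7 higher and none lower. Of all genes, 5.36% and 2.21% were called lower in these fits. The mouse 19 minus mouse 7 difference was called above 0 for 5 of the 12, beside 4.74% of all genes in either direction. In mouse 7 the bones overlapped for C1qb, at 80.1 to 89.6 CPM in tibias and 72.5 to 87.9 CPM in femurs. Resident macrophage genes had 2 of 12 tested higher, Maf 0.58 and Hmox1 0.32, and none lower, while Cd209f and Cd209g were at 0. Their sums were 381 to 419 CPM in tibias and 301 to 321 CPM in femurs of mouse 19, and 331 to 340 CPM in tibias and 309 to 341 CPM in femurs of mouse 7. Folr2, a gene of such cells, stayed at or under the floor in all 12 libraries.

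Eosinophil genes had 2 of 7 lower in tibias over both mice (3.69% of all genes) and none higher. The number lower was 1 when tibia library 3 or femur library 1 of mouse 7 was left out. It was also 1 without tibia library 3, femur library 1 or femur library 3 of mouse 19. The mice differed: within mouse 7, 2 were called higher and 1 lower, and within mouse 19, 2 lower and none higher. Of all genes, 5.36% and 2.21% were called lower in these fits. The mouse 19 minus mouse 7 difference was called above 0 for 1 and below 0 for 2, beside 4.74% of all genes in either direction. Erythroid, lymphoid and stromal lists had 0 called of 4 tested each by edgeR or DESeq2. By edgeR 1, 2 and 0 of their genes had an unadjusted p under 0.05, beside 2451 of all 11806 genes. Without femur library 3 of mouse 19, 1 erythroid gene was called lower, and without femur library 1 of mouse 19, 1 lymphoid gene was.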
